A study of Mus musculus with 6 samples.

Results

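The transcripts of interleukin 10 (IL-10), of the receptors for IL-10 and interleukin 6 (IL-6), of the transcription factors STAT3 and STAT6 and of 3 inhibitors of cytokine signalling were followed in monocytes of mice with kidney inflammation. The 10 genes were Il10, Il10ra, Il10rb, Il6ra, Il6st, Stat3, Stat6, Socs1, Socs3 and Cish, taken by symbol from a table of 24047 rows, and all 10 had a row. The kidney group held 3 libraries (double_pos replicates 7, 8 and 22), and the spleen and bone marrow group, called spleen and marrow here, held 3 (double replicates 2, 24 and 26). All came from wild-type mice of the strain written C5/Bl6, aged 8 to 10 weeks, in which nephrotoxic nephritis, an antibody-driven injury of the glomerulus, had been induced. The series used 10 mice, killed on day 13. The markers behind double_pos and double are not named, and whether a library is 1 animal or a pool is not stated, so the p-values reflect spread among libraries, and that spread may be technical. Isolation is described for kidney monocytes only and no healthy mice are among the samples, so tissue and handling cannot be told apart and nothing can be said of the disease itself.

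IL-10 is a cytokine that restrains inflammatory gene expression in monocytes and macrophages. It binds a receptor made of IL10RA, the ligand-binding chain, and IL10RB, a chain shared with other cytokines, and the attached kinases JAK1 and TYK2 activate STAT3. IL-6 activates the same STAT3 through IL6RA and the shared chain gp130, encoded by Il6st, whereas IL-4 and IL-13 act through IL4RA and STAT6. SOCS1, SOCS3 and CISH belong to a family of feedback inhibitors whose genes are induced by STATs, and SOCS3 binds gp130 and blocks IL-6 signalling.

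Total counts ran from 3492391 to 7938223 in kidney and from 7311991 to 9727489 in spleen and marrow. Kidney replicate 22 was the shallowest library, with 11804 genes detected against 13040 to 14057 in the other 5. It also stood apart, with a Pearson correlation of log2 CPM across genes of 0.818 and 0.819 with kidney replicates 7 and 8, which correlated with each other at 0.930. Kidney replicates 7 and 8 correlated with the spleen and marrow libraries at 0.809 to 0.820, and kidney replicate 22 did so at 0.723 to 0.727. Values of single libraries are given in the order 7, 8 and 22 for kidney and 2, 24 and 26 for spleen and marrow. All 10 listed monocyte markers were detected in every library. Their sum was 33774 to 36601 CPM (read counts scaled to the size of the library) in kidney and 44594 to 61585 CPM in spleen and marrow, most of it Lyz2. Of the 10 markers 7 were called by edgeR, 5 higher and 2 lower in kidney. Of all genes tested 13.7% were called, 7.83% higher and 5.9% lower. Ly6c2, a marker of classical monocytes, was at 317, 752 and 810 CPM in kidney, against 5860, 5020 and 5356 CPM in spleen and marrow (log2 fold change -3.11, edgeR adjusted p = 0.00149), and Lyz2 was also lower (log2 fold change -0.60, adjusted p = 0.0342, lost without kidney replicate 7, 8 or 22 or spleen and marrow replicate 24 or 26, where it was 0.0549 to 0.121). Cx3cr1, Csf1r, Cd14, Fcgr1 and Itgam were higher in kidney, by 2.45, 1.67, 1.59, 1.31 and 1.25 on the log2 scale (edgeR adjusted p of at most 0.0353), the call of Itgam being lost without kidney replicate 7 (0.0554) or spleen and marrow replicate 2, 24 or 26 (0.159, 0.115 and 0.131). The kidney libraries differed in markers of other cells. The sum of 8 neutrophil markers was 1196, 4280 and 43335 CPM in the kidney libraries, against 23468 to 30054 CPM in spleen and marrow. Kidney replicate 22 was above every spleen and marrow library for S100a8, S100a9, Camp, Ngp and Cxcr2. It was below all of them for Elane (245 against 1078 to 1727 CPM), Mpo (37.3 against 221 to 357 CPM) and Mmp8 (139 against 279 to 422 CPM). The sum of 7 endothelial markers was 18.2, 572 and 14.1 CPM in the same kidney libraries, against 5.34 to 6.43 CPM in spleen and marrow, and that of 7 tubule markers was 185, 79.9 and 498 CPM in kidney, against 0.574 to 0.821 CPM. The T cell marker Cd3e was at most 0.857 CPM in any library and at 0 in kidney replicates 8 and 22. The summed CPM of the listed T cell markers was 8.81 to 17.5 in kidney and 18.9 to 21.9 in spleen and marrow, of B and plasma cell markers 30.2 to 136 and 64.0 to 79.2, of NK cell markers 5.81 to 22.6 and 5.05 to 27.2, and of dendritic cell markers 5.58 to 62.5 and 28.0 to 49.4. Podocyte markers summed to 2.73 to 67.6 CPM in kidney and 0.107 to 0.137 CPM in spleen and marrow, and fibroblast and mural markers to 13.2 to 54.1 and 11.4 to 13.2 CPM. The part of these cells, and of the shift in monocyte markers, in the results below was not tested. In bulk samples, fewer cells of a type and less RNA per cell cannot be told apart.

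Both IL-10 receptor chains and the feedback inhibitors Socs1 and Socs3 were higher in kidney, while Stat3, Stat6 and the IL-6 receptor chains did not pass the test. Of the 10 genes, 8 passed the filter on low counts and 4 of these rose in kidney, with none lower, by edgeR's quasi-likelihood test at an adjusted p under 0.05. Over all 10626 genes tested, 13.7% were called, 7.83% higher and 5.9% lower in kidney. The median log2 fold change was 0.65 over the 8 genes and 0.05 over all genes tested. Il10 and Cish had too few counts to be tested. The CPM values of the groups did not overlap for 5 of the 8 tested genes, 4 with kidney above and 1 with kidney below. Among all genes tested the groups did not overlap for 37.9%, with kidney above for 19.2% and below for 18.8%.

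**Figure D1:**
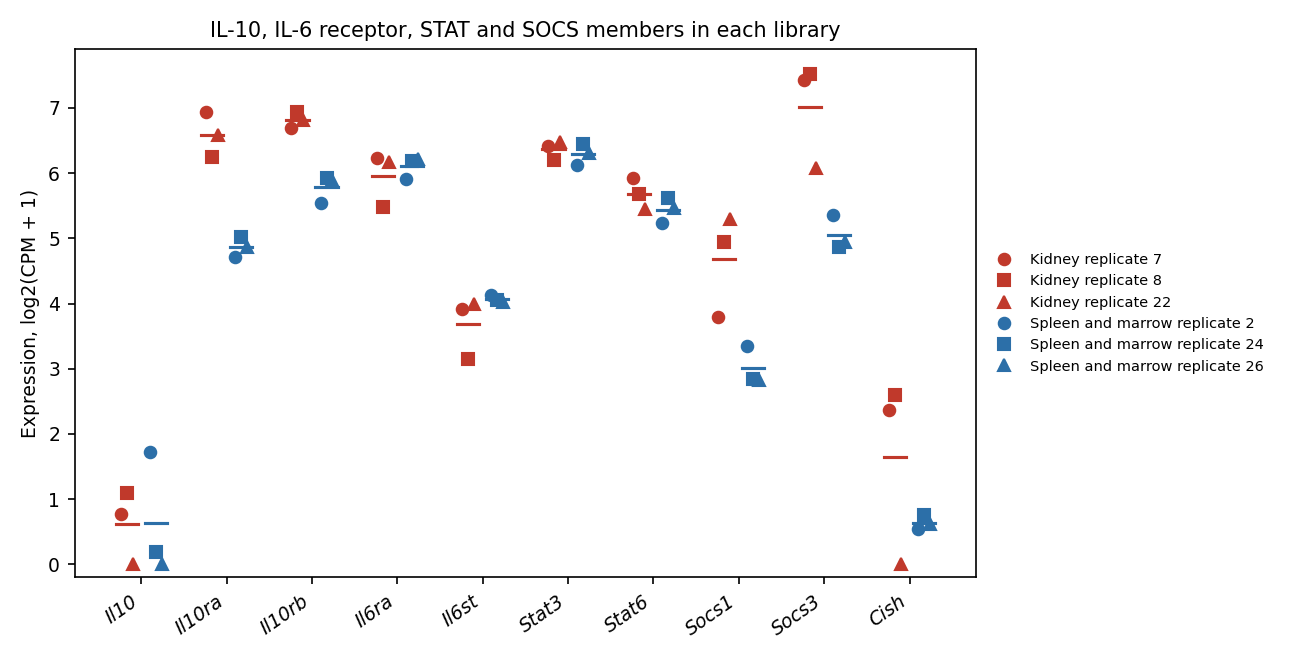
Expression of the 10 genes as log2(CPM + 1) on the vertical axis, with 1 point for each library (kidney in red at the left of each pair, spleen and marrow in blue at the right) and a bar at the mean of each group of 3. Kidney points lie above all spleen and marrow points for Il10ra, Il10rb, Socs1 and Socs3, and Il10 and Cish lie near the bottom with kidney replicate 22 at 0.

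Il10ra was at 122, 74.7 and 95.4 CPM in the kidney libraries, against 25.3, 31.5 and 28.3 CPM in those of spleen and marrow. Every kidney library was above every spleen and marrow library. Its log2 fold change was 1.78 ± 0.22 (SE, n = 3 each), a 3.44-fold higher level in kidney, with an edgeR adjusted p of 0.00259. The call remained on leaving out any 1 library, with an edgeR adjusted p of at most 0.0276. Among kidney libraries Il10ra was lowest in replicate 8 by CPM, but in replicate 22 by FPKM, at 13.8, 8.70 and 6.99 FPKM in replicates 7, 8 and 22. The log2 fold change of Il10ra without replicate 8 was 1.93. Replicate 8 had the highest endothelial sum, and the part of endothelial cells was not tested.

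Il10rb was at 102, 122 and 111 CPM in the kidney libraries, against 45.8, 59.5 and 58.4 CPM in those of spleen and marrow. By CPM the kidney values lay close together, with the highest 1.19 times the lowest, where the median gene tested had a range of 1.91-fold among kidney libraries. By FPKM they lay further apart, at 25.0, 31.6 and 19.3 FPKM in replicates 7, 8 and 22. The lower place of replicate 22 by FPKM was not particular to Il10rb. Stat3 was at 84.6, 72.7 and 88.4 CPM but at 8.28, 8.12 and 6.21 FPKM in the same libraries. The log2 fold change was 1.03 ± 0.17 (SE, n = 3 each), or 2.05-fold, with an edgeR adjusted p of 0.00803. The call was lost without spleen and marrow replicate 26 (edgeR adjusted p = 0.0543) and on log2(FPKM + 1) with limma-trend (adjusted p = 0.0568).

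The balance of the IL-10 receptor chains can be read within each library. Within a library, FPKM values, which are per transcript length, can be set against each other. The ratio of Il10ra to Il10rb in FPKM was 0.553, 0.276 and 0.361 in the kidney libraries, against 0.229, 0.223 and 0.212 in those of spleen and marrow. Il10ra was the less abundant chain in all 6 libraries, and the ratio was higher in each kidney library than in any spleen and marrow library. This ratio was not tested.

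The IL-6 receptor chains gave no call. Il6ra, the ligand-binding chain, was at 74.1, 43.7 and 70.8 CPM in the kidney libraries, against 59.3, 71.8 and 73.4 CPM in those of spleen and marrow. The groups overlapped, with kidney replicate 8 lowest of all. The log2 fold change was -0.12 ± 0.23 (SE, n = 3 each; 95% interval -0.65 to 0.42), with an edgeR adjusted p of 0.783. Il6st, which encodes the signalling chain gp130, was at 14.1, 7.83 and 15.0 CPM in kidney, against 16.5, 15.6 and 15.2 CPM in spleen and marrow. All kidney values were below the others, but replicates 7 and 22 only by a narrow margin. The log2 fold change of Il6st was -0.37 ± 0.32 (SE, n = 3 each; 95% interval -1.11 to 0.38), with an edgeR adjusted p of 0.508. Per transcript length Il6ra was the more abundant chain in every library, with a ratio of Il6ra to Il6st in FPKM of 8.34, 10.1 and 8.63 in kidney and 5.56, 7.76 and 7.56 in spleen and marrow.

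Of 16 other receptor genes of the IL-10, IL-6 and IL-4 groups, 7 passed the filter, of which 3 rose and none fell, with a median log2 fold change of 1.06 over the 7. Over all genes tested, 7.83% rose and 5.9% fell. Il21r, which encodes the receptor for interleukin 21, was at 15.3, 22.7 and 18.2 CPM in the kidney libraries, against 7.92, 4.10 and 5.68 CPM in those of spleen and marrow. Il4ra, the chain that binds IL-4 and leads to STAT6, was at 81.3, 43.9 and 96.0 CPM in kidney, against 41.3, 29.5 and 26.5 CPM in spleen and marrow. Lifr, the receptor chain for leukaemia inhibitory factor that pairs with gp130, was at 50.7, 30.1 and 25.5 CPM in kidney, against 15.5, 18.9 and 15.0 CPM in spleen and marrow. For all 3 genes each kidney library was above each spleen and marrow library, although Il4ra in kidney replicate 8 came close to spleen and marrow replicate 2. Their log2 fold changes were 1.66 ± 0.35, 1.18 ± 0.32 and 1.11 ± 0.30 (SE, n = 3 each), with edgeR adjusted p of 0.0200, 0.0469 and 0.0482. Leaving out any 1 library of spleen and marrow ended the calls of Il21r, Il4ra and Lifr, where the edgeR adjusted p reached 0.121, 0.197 and 0.202, while their log2 fold changes stayed at 1.44 to 1.91, 1.03 to 1.38 and 1.03 to 1.20. In those comparisons 4.41%, 4.38% and 3.9% of all genes tested were called, without replicates 2, 24 and 26. The calls were also lost without kidney replicate 8 for Il21r (adjusted p = 0.0528), without kidney replicate 7 or 22 for Il4ra (0.112 and 0.0576) and without kidney replicate 7 or 8 for Lifr (0.0993 and 0.0542). The call of Il4ra was lost too with limma-voom (0.0569) and with DESeq2 size factors (0.0524), and that of Lifr with scaling by library size alone (0.0503) or no filter (0.0507).

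The ligand itself was scarcely present. Il10 had 6, 9 and 0 counts in the kidney libraries, against 20, 1 and 0 counts in those of spleen and marrow. Most of the spleen and marrow counts thus came from 1 library, and 1 library of each group had none. A count of 0 allows up to 0.881 CPM in kidney replicate 22 and 0.322 CPM in spleen and marrow replicate 26, by a limit of 3 counts that covers counting error only. Pooled over each group, 15 against 21 counts gave a ratio of 0.916 (95% exact binomial interval 0.439 to 1.86), kidney over spleen and marrow. Without spleen and marrow replicate 2 the counts were 15 against 1 and the ratio 12.6 (95% interval 1.94 to 532), so no direction is given for Il10.

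**Figure D2:**
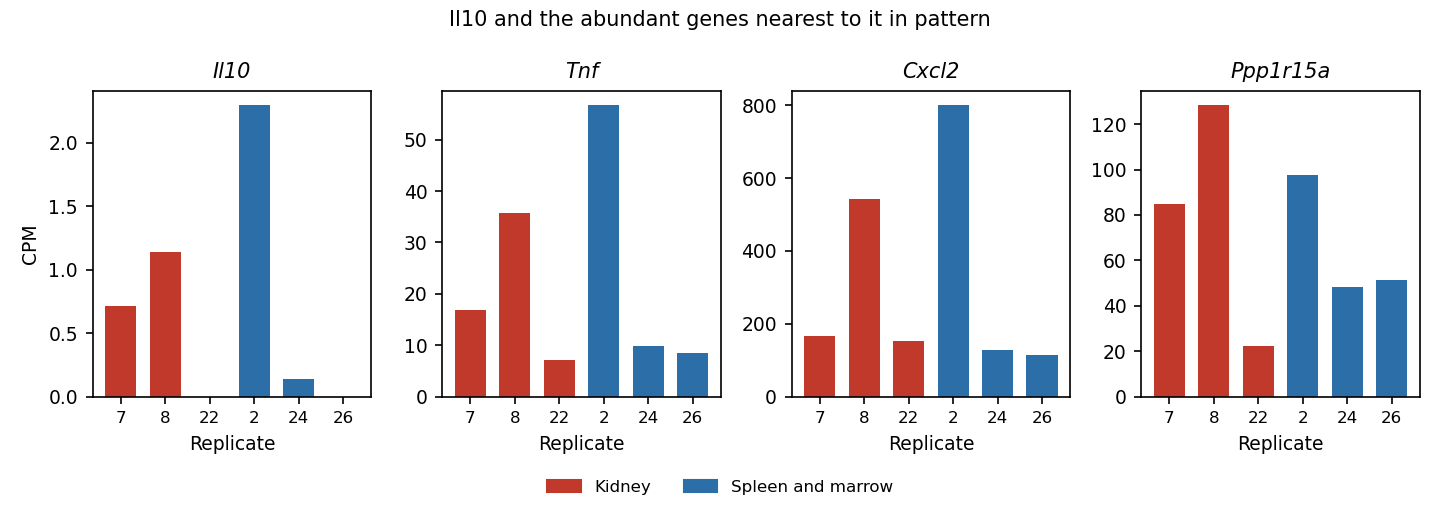
CPM in each library (kidney bars in red, replicates 7, 8 and 22, at the left; spleen and marrow bars in blue, replicates 2, 24 and 26, at the right) for Il10 and the 3 abundant genes nearest to it in pattern, each panel with its own vertical axis from 0. Spleen and marrow replicate 2 carries the tallest bar of Il10, Tnf and Cxcl2, and kidney replicate 8 the next tallest.

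The genes nearest to Il10 in pattern are given as a description, since the choice itself fixes their likeness. Among the 5643 candidate genes, those whose log2 CPM averaged 4 or more, Tnf, which encodes tumour necrosis factor, was nearest in pattern. Its root mean square difference from Il10 over the 6 libraries was 0.28 in log2 CPM after each gene was centred on its own mean. Tnf was at 16.9, 35.8 and 7.05 CPM in the kidney libraries, against 56.7, 9.85 and 8.57 CPM in those of spleen and marrow. Next came Cxcl2, a neutrophil-attracting chemokine, at a difference of 0.54, and Ppp1r15a, a stress response gene, at 0.70. Cxcl2 was at 166, 544 and 152 CPM in kidney and 800, 127 and 115 CPM in spleen and marrow. As with Il10, spleen and marrow replicate 2 was highest and kidney replicate 8 next for Tnf and Cxcl2, whereas for Ppp1r15a the order of those 2 libraries was the other way round. With 36 counts in all libraries together, the pattern of Il10 is itself imprecise.

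Of 15 other ligand genes of the IL-10 and IL-6 type, 4 were abundant enough to test. None of the 4 was called by edgeR, DESeq2 or limma-voom, with none at an unadjusted p under 0.05 in edgeR. As edgeR called 13.7% of all genes tested, an absence of calls among 4 genes is not set apart from that share. Osm, which encodes oncostatin M, a ligand that signals through gp130, was at 37.6, 75.7 and 36.1 CPM in the kidney libraries, against 72.5, 51.6 and 54.1 CPM in those of spleen and marrow. Ebi3, which encodes a subunit of interleukin 27, was at 25.4, 53.7 and 62.3 CPM in kidney, against 42.3, 48.2 and 59.1 CPM in spleen and marrow. The groups overlapped for both genes. Their log2 fold changes were -0.25 ± 0.32 and -0.09 ± 0.33 (SE, n = 3 each), with edgeR adjusted p of 0.662 and 0.892. Il27, the other subunit, had 4.15, 14.8 and 7.34 CPM in kidney and 11.9, 7.93 and 7.61 CPM in spleen and marrow. Il6 had 22, 40 and 0 counts in kidney, against 43, 12 and 14 counts in spleen and marrow, and kidney replicate 8 and spleen and marrow replicate 2 were highest in CPM, at 5.05 and 4.94.

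The remaining ligand genes had 49 counts or fewer over all 6 libraries, and Il19, Il20, Il24, Ifnl2 and Ifnl3 had none. Clcf1, another gp130 ligand, had 26, 16 and 3 counts in the kidney libraries, against 0, 4 and 0 counts in those of spleen and marrow, a pooled ratio of 14.4 (95% exact binomial interval 5.26 to 55.3, counting error only). Il22 had 10 counts, all of them in kidney replicate 22, and Ctf1 had 6 counts, all in kidney replicate 7. Lif had 6, 0 and 0 counts in kidney and 7, 2 and 0 counts in spleen and marrow. Il4, the ligand that leads to STAT6, had 0, 0 and 2 counts in kidney and 3, 6 and 9 counts in spleen and marrow, a pooled ratio of 0.143 (95% exact binomial interval 0.0160 to 0.595). Mast cells and basophils can make IL-4. Their listed markers summed to 0.593, 6.95 and 19.1 CPM in kidney and 99.7, 197 and 197 CPM in spleen and marrow. Cpa3 and Ms4a2 were at 0 in all kidney libraries. Gata2 went the other way in kidney replicate 8, at 6.57 CPM against at most 0.965 CPM in spleen and marrow. Most of the sum in kidney replicate 22 was Prss34, at 13.8 CPM, and Mcpt8, at 5.29 CPM. The part of these cells in the Il4 counts was not tested. Il13, the other listed ligand that acts through IL4RA, had no count in any library.

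The STAT genes themselves gave no call. Stat3 was at 84.6, 72.7 and 88.4 CPM in the kidney libraries, against 69.0, 86.3 and 78.6 CPM in those of spleen and marrow. The groups interleaved. The log2 fold change was 0.07 ± 0.16 (SE, n = 3 each; 95% interval -0.31 to 0.45), with an edgeR adjusted p of 0.823. Stat6 was at 60.0, 50.2 and 42.6 CPM in kidney, against 36.5, 47.9 and 43.4 CPM in spleen and marrow, and its log2 fold change was 0.26 ± 0.20 (SE, n = 3 each; 95% interval -0.21 to 0.73), with an edgeR adjusted p of 0.452. The upper ends of the intervals correspond to less than a doubling, since both lie below a log2 fold change of 1. Per transcript length Stat3 exceeded Stat6 in all 6 libraries, with a ratio in FPKM of 1.28, 1.43 and 1.88 in kidney and 1.63, 1.52 and 1.56 in spleen and marrow.

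None of the 7 STAT genes and none of the 4 JAK genes was called by edgeR, DESeq2 or limma-voom. By edgeR 13.7% of all genes tested were called, and with only 11 genes an absence of calls is not set apart from that share. Of these 11 genes, 1 had an unadjusted p under 0.05 in edgeR, which was Jak1. Jak1, the kinase on the IL-10 and IL-6 receptors, was at 109, 133 and 108 CPM in kidney, against 99.8, 80.4 and 89.2 CPM in spleen and marrow, with a log2 fold change of 0.38 ± 0.16 (SE, n = 3 each) and an edgeR adjusted p of 0.173. The genes nearest to Stat3 in pattern were Hk2, a hexokinase gene, Rbms1 and Arhgef1, at differences of 0.054, 0.062 and 0.063 in centred log2 CPM, and none of the 3 was called.

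Among the feedback inhibitors, Socs3 and Socs1 rose in kidney. Socs3, the inhibitor that acts on gp130, was at 171, 183 and 66.7 CPM in the kidney libraries, against 40.1, 28.2 and 29.7 CPM in those of spleen and marrow. All kidney values were above the others, but replicate 22 held far less than replicates 7 and 8, and the highest kidney value was 2.75 times the lowest. The log2 fold change was 2.11 ± 0.37 (SE, n = 3 each), a 4.31-fold higher level in kidney, with an edgeR adjusted p of 0.0103. Without kidney replicate 22 it was 2.41, and the call was lost when spleen and marrow replicate 2, 24 or 26 was left out (edgeR adjusted p of 0.0511, 0.0679 and 0.0686) and on log2(FPKM + 1) with limma-trend (adjusted p = 0.0656). Without those libraries in turn its log2 fold change was 1.99 to 2.27.

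Socs1, an inhibitor of JAK kinases that is known for restraining interferon and IL-4 signalling, was at 12.9, 29.7 and 38.5 CPM in the kidney libraries, against 9.19, 6.16 and 6.11 CPM in those of spleen and marrow. All kidney values were above the others. Among kidney libraries Socs1 was lowest in replicate 7, whereas Socs3 was lowest in replicate 22. By CPM Socs1 was highest in replicate 22, but by FPKM in replicate 8, at 4.51, 10.9 and 9.44 FPKM in replicates 7, 8 and 22. The ratio of Socs3 to Socs1 in FPKM was 5.39, 2.42 and 0.692 in kidney replicates 7, 8 and 22, spread around the 1.79, 1.84 and 2.04 of spleen and marrow. The log2 fold change of Socs1 was 1.90 ± 0.44 (SE, n = 3 each), or 3.74-fold, with an edgeR adjusted p of 0.0262. That call was lost without kidney replicate 8 (edgeR adjusted p of 0.0626) and without spleen and marrow replicate 2, 24 or 26 (0.0839, 0.120 and 0.131), where its log2 fold change was 1.78 to 2.11.

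Cish, which encodes an inhibitor best known downstream of STAT5, had 35, 40 and 0 counts in the kidney libraries, against 4, 5 and 5 counts in those of spleen and marrow. In CPM this was 4.15, 5.05 and 0 in kidney, against 0.459, 0.684 and 0.536 in spleen and marrow. Kidney replicates 7 and 8 were thus above every spleen and marrow library, while replicate 22 had none, a count that allows up to 0.881 CPM. Without replicate 22 Cish passed the filter, with a log2 fold change of 3.0 ± 0.44 (SE) and an edgeR adjusted p of 0.00357, in a comparison in which 25.3% of all genes were called. Without any 1 spleen and marrow library it was also testable and gave adjusted p of 0.382 to 0.448.

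Across the SOCS family of 8 genes, beside 7.83% higher and 5.9% lower over all genes tested, 3 of the 7 tested rose and none fell. Besides Socs1 and Socs3 this was Socs2, a regulator of growth hormone signalling, with 33, 43 and 16 counts in the kidney libraries, against 2, 0 and 2 counts in those of spleen and marrow. Its pooled ratio was 29.5 (95% exact binomial interval 11.1 to 111), its log2 fold change 4.78 ± 0.80 (SE, n = 3 each) and its edgeR adjusted p 0.00836. That call too ended when spleen and marrow replicate 2, 24 or 26 was left out (edgeR adjusted p of 0.0681, 0.0514 and 0.0734). Socs4 to Socs7 gave no call. Of all 14 other inhibitors listed, which also include PIAS proteins and phosphatases, Socs2 was the one called, and the median log2 fold change was -0.08. The genes nearest to Socs3 in pattern were Luzp1, Entpd1, which encodes the ectonucleotidase CD39, and Rab20, a vesicle traffic gene, at differences of 0.24, 0.31 and 0.32 in centred log2 CPM. They were chosen for this likeness, so their agreement with Socs3 is no separate result.

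The promoters of Socs3 and Socs1 are shown because these were the called genes for which RefSeq sequence was at hand, and the feedback genes of the pathway are known STAT and interferon targets. Of the 10 genes, 7 matched the RefSeq promoter table of build GRCm38.p6 by symbol. The 250 bases before each RefSeq start were searched on both strands for a STAT palindrome, TTC and GAA with 3 bases between (the usual spacing) or 4 bases between (the spacing STAT6 prefers), and for GAAA repeated after 2 bases, an element of interferon-responsive promoters that was added after the sequences had been seen. Matches are in capitals.
Socs3 promoter (chr11:117969367-117969616, minus strand): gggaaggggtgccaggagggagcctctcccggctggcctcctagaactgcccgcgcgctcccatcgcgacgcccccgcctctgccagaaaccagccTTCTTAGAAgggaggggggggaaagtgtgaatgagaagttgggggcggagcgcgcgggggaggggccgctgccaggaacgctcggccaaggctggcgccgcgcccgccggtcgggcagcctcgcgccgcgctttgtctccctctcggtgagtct
Socs1 promoter (chr16:10785537-10785786, minus strand): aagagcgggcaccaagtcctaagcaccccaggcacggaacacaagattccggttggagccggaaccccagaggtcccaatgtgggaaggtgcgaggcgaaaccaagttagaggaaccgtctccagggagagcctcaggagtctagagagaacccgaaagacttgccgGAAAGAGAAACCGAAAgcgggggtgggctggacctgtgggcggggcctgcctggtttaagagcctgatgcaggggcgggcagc
Socs3 held 1 palindrome with 3 bases between, TTCTTAGAA, which began 154 bases before the RefSeq start. The start of the coding transcript Socs3-201 in GENCODE vM21 lies 180 bases further downstream, and the bases between the starts were not searched. Socs1 held 2 overlapping matches of the GAAA repeat and no STAT palindrome. The promoters of Cish, Il6ra, Il6st, Stat3 and Stat6 held no match of any of the 3 motifs in this window, and those of Il10, Il10ra and Il10rb were not searched. Over 32851 promoter windows of the same length, 7.02% held the palindrome with 3 bases between, 5.85% that with 4 bases between and 2.98% the GAAA repeat. A match is a description of the sequence and no evidence of binding.

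**Figure D3:**
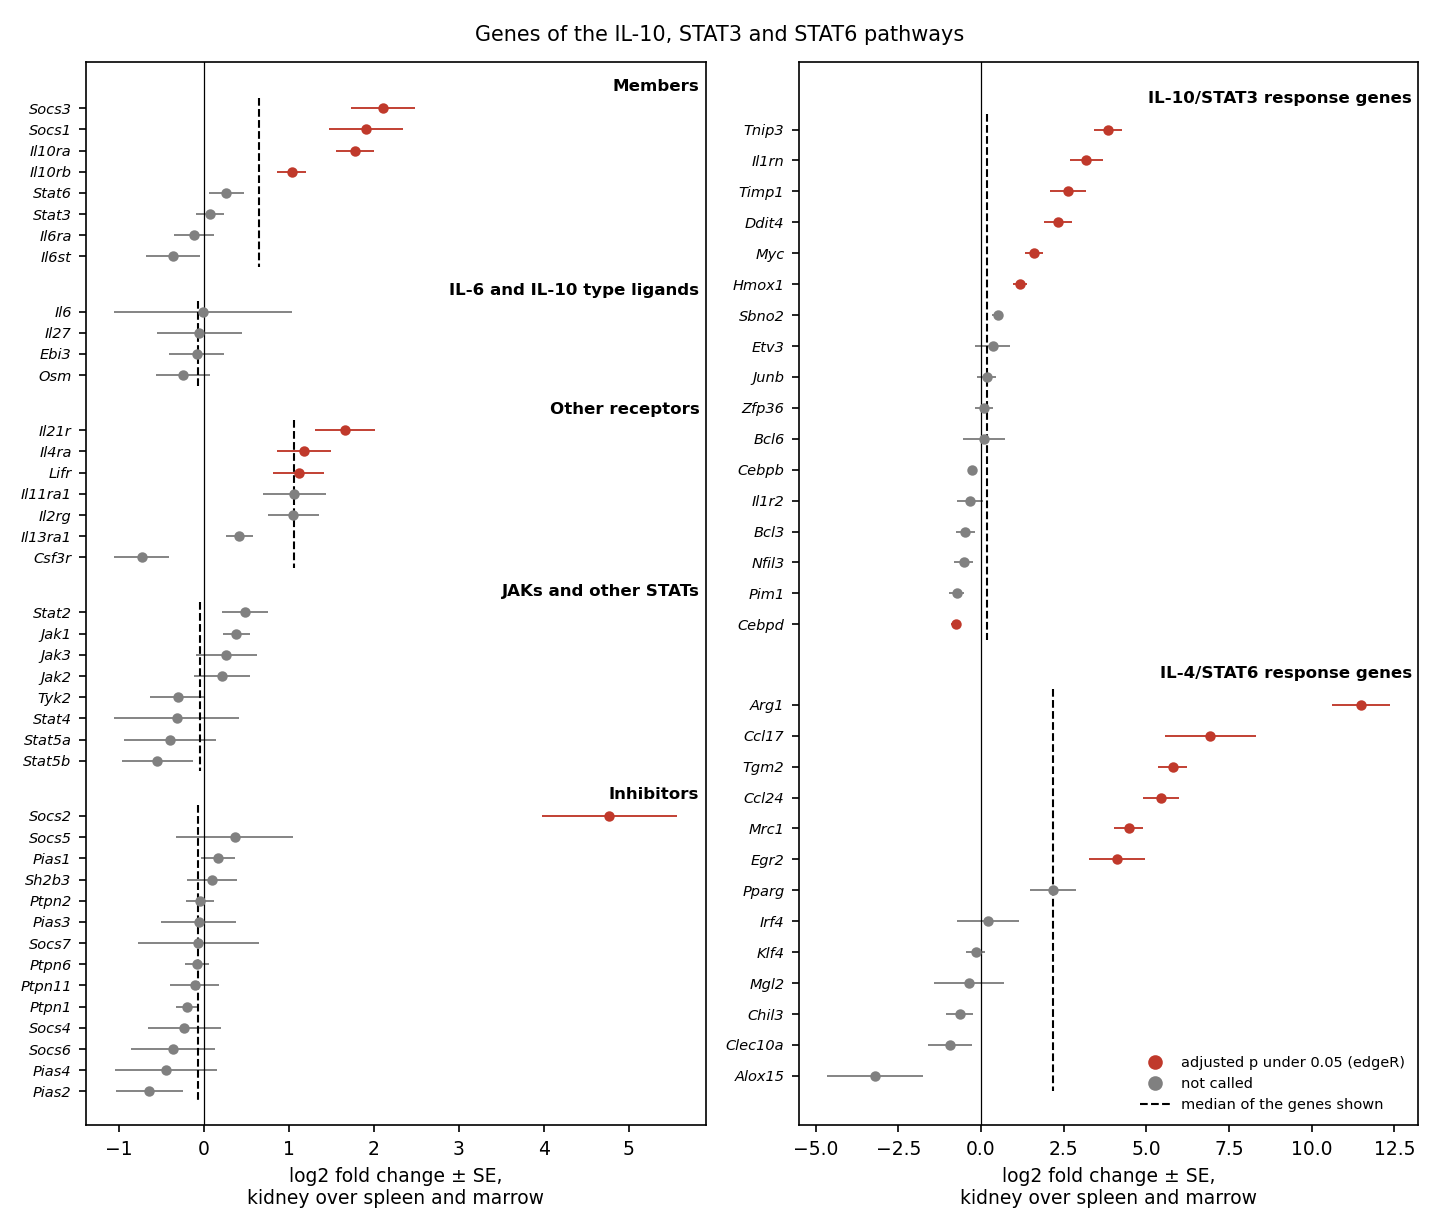
Log2 fold changes of kidney over spleen and marrow with their SE on the horizontal axis for tested genes, 1 row per gene, grouped by list, with edgeR calls in red, other genes in grey and the median of the genes shown in each group as a dashed line. The calls lie among receptor, SOCS and response genes, and none of the few ligands, JAKs and STATs shown was called.

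Genes known to respond to IL-10 and STAT3 were split. Of 17 listed, all tested, 6 rose and 1 fell in kidney, 10 gave no call, and the median log2 fold change was 0.17. Over all genes tested, 7.83% rose and 5.9% fell. Tnip3, an inhibitor of NF-kB signalling, was at 19.4, 43.1 and 47.0 CPM in the kidney libraries, against 2.53, 2.05 and 3.0 CPM in those of spleen and marrow. Il1rn, which encodes the interleukin 1 receptor antagonist, was at 20.1, 54.6 and 84.3 CPM in kidney, against 4.82, 6.43 and 6.11 CPM in spleen and marrow. By CPM both were lowest in kidney replicate 7 and highest in replicate 22. Their log2 fold changes were 3.83 ± 0.42 and 3.18 ± 0.51 (SE, n = 3 each), with edgeR adjusted p of 0.00152 and 0.00687. Myc and Ddit4, genes of growth and of stress, had log2 fold changes of 1.59 ± 0.28 and 2.33 ± 0.41 (edgeR adjusted p of 0.00983 and 0.0105), and Hmox1 and Timp1, named after their values were seen, were the others that rose. The call of Hmox1 was lost without spleen and marrow replicate 2, 24 or 26 (edgeR adjusted p of 0.0733, 0.0760 and 0.0682) and that of Timp1 without replicate 24 or 26 (0.101 and 0.107). Cebpd, a transcription factor gene of the acute phase response, was at 173, 176 and 149 CPM in kidney and 239, 294 and 310 CPM in spleen and marrow and fell by 0.76 on the log2 scale (edgeR adjusted p = 0.0160). Bcl3 and Nfil3, repressors induced early by IL-10 and also named after their values were seen, gave no call, with log2 fold changes of -0.47 and -0.52. On leaving out single spleen and marrow libraries, the calls of Ddit4 (without replicate 2, 24 or 26), Myc and Cebpd (without replicate 24 or 26) and Il1rn (without replicate 2) were lost, with edgeR adjusted p up to 0.0684, 0.0738, 0.0994 and 0.0535.

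Of 18 genes known to respond to IL-4 and STAT6, 13 were tested, of which 6 rose, none fell and 7 gave no call, with a median log2 fold change of 2.17. Over all genes tested, 7.83% rose and 5.9% fell. Tgm2, a transglutaminase, was at 83.5, 81.4 and 152 CPM in the kidney libraries, against 2.99, 1.23 and 1.39 CPM in those of spleen and marrow. Ccl24, an eosinophil-attracting chemokine, was at 32.6, 42.2 and 98.1 CPM in kidney, against 1.72, 1.37 and 0.857 CPM in spleen and marrow. The mannose receptor gene Mrc1 was at 29.6, 18.4 and 17.0 CPM in kidney, against 1.15, 0.547 and 1.18 CPM in spleen and marrow. No spleen and marrow library came near the kidney values of these 3 genes. Their log2 fold changes were 5.79 ± 0.44, 5.43 ± 0.54 and 4.46 ± 0.45 (SE, n = 3 each), with edgeR adjusted p of 0.000564, 0.00114 and 0.00117. Arg1, which breaks down arginine, had 1263, 1298 and 1756 counts in kidney, against 0, 1 and 1 counts in spleen and marrow, a pooled ratio of 2769 (95% exact binomial interval 766 to 22874). In CPM the kidney libraries were at 150, 164 and 516 for Arg1, so replicate 22 was far above the others. The calls of Tgm2, Arg1, Ccl24 and Mrc1 remained on leaving out any 1 library. Ccl17 and Egr2, named after their values were seen, were the others that rose, and both calls were lost without spleen and marrow replicate 2, 24 or 26 (edgeR adjusted p of 0.0857 to 0.0929 for Ccl17 and 0.0764 to 0.113 for Egr2). The list did not move as a whole. Retnla, the classic IL-4 response gene of mouse macrophages, had no count in any library. Chil3, like Retnla named after its values were seen, was at 7892, 3381 and 5816 CPM in kidney and 4270, 10787 and 11675 CPM in spleen and marrow, with a log2 fold change of -0.65 and an edgeR adjusted p of 0.354. Counted over all 91 other pathway genes, 64 were tested, 16 rose and 1 fell, and the numbers that rose were 7, 6 and 6 without spleen and marrow replicate 2, 24 or 26.

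Ordered by FPKM, so that transcripts of different length can be compared, the genes kept some ranks and changed others. In kidney Il10rb averaged 25.3 ± 6.12 FPKM, Socs3 19.1 ± 11.0, Il10ra 9.83 ± 3.54, Socs1 8.30 ± 3.36, Stat3 7.54 ± 1.15, Il6ra 6.81 ± 1.70 and Stat6 5.14 ± 1.63 FPKM (SD, n = 3). The ranges of neighbours in this order overlapped across libraries. Within each kidney library Il10rb was above Socs3, by little in replicate 7 (25.0 against 24.3 FPKM). The first step without overlap of ranges was down to Il6st at 0.770 ± 0.254 FPKM, followed by Cish and Il10. In spleen and marrow Il10rb also came first at 13.4 ± 2.12 FPKM. Apart from it lay Il6ra at 8.26 ± 0.854 and Stat3 at 7.69 ± 1.11 FPKM, whose ranges overlapped. Il6ra was above Stat3 within each spleen and marrow library, by little in replicate 24 (8.75 against 8.72 FPKM). Below Il6ra and Stat3, Stat6 at 4.92 ± 0.868 and Socs3 at 4.49 ± 0.843 FPKM overlapped. Next came Il10ra at 2.97 ± 0.413 and Socs1 at 2.39 ± 0.565 FPKM, with Il6st, Il10 and Cish at the end (SD, n = 3). Socs3 and Il10ra thus stood above Stat3 and Il6ra by mean FPKM in kidney and below them in spleen and marrow.

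**Figure D4:**
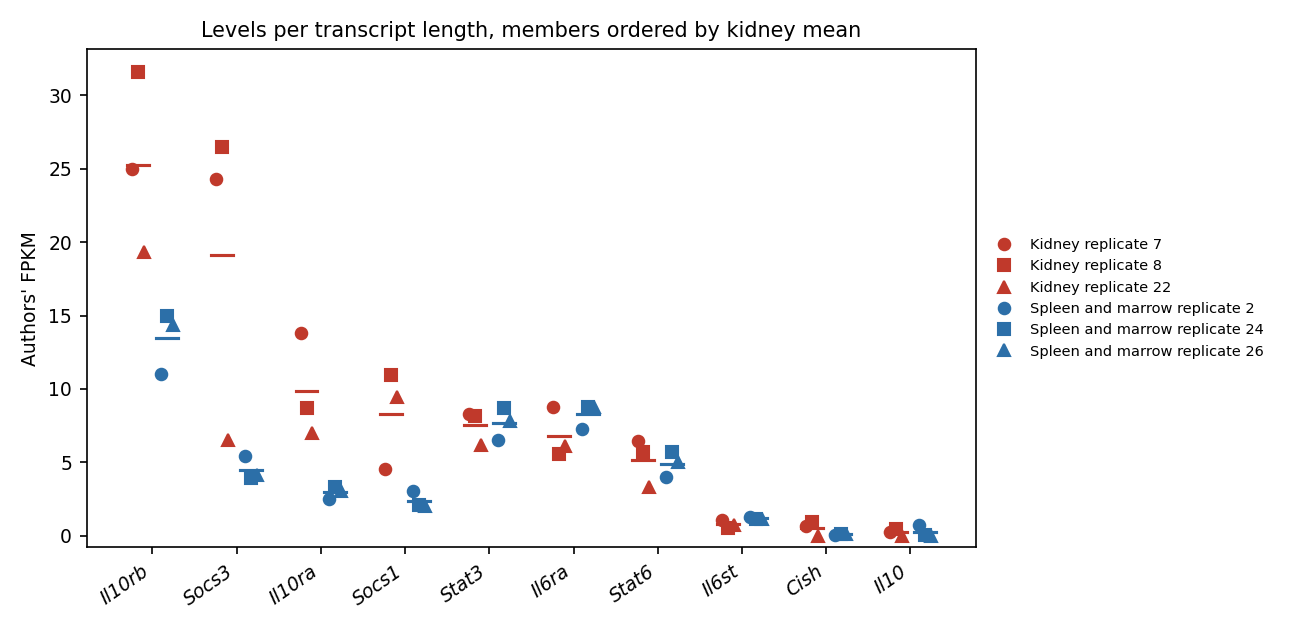
FPKM of the 10 genes in each library on a linear vertical axis, ordered from left to right by the kidney mean (kidney in red at the left of each pair, spleen and marrow in blue at the right, bars at the mean of 3). Il10rb leads in both groups, Socs3 spreads widely among kidney libraries, and Stat3, Il6ra and Stat6 overlap between the groups.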

How the data were processed

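RNA was sequenced from 3 kidney and 3 spleen and marrow monocyte libraries, made per the labels' protocols from 2 ng of RNA with SMART-Seq v4 and ThruPLEX reagents, a chemistry that as usually run does not mark strand. The authors deposited raw read counts (whole numbers) for each gene symbol. The deposited FPKM values, scaled by the authors for depth and transcript length, cover 24043 rows. The tools named, per the submitters' processing notes, are STAR 2.5, Cufflinks 2.2.1 and bcl2fastq 2.18, with build mm9. The read counter is not given in the sources used here. The 92 spike-in rows held no count and were left out, and 27 symbols had been turned into dates.

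The test over all genes used edgeR 4.0.16 (R 4.3.3): filterByExpr (10626 genes left), TMM scaling, glmQLFit and glmQLFTest, two-sided, with Benjamini-Hochberg adjusted p under 0.05 as a call. The SE was obtained by dividing the absolute log2 fold change by the root of F. CPM are counts over the TMM-scaled library size. On data simulated from these depths and mean levels for the kidney against spleen and marrow comparison, with 200 of 10626 genes changed, recovery was 22.4% for 2-fold changes, 70.1% for 4-fold changes and 89.4% for 8-fold changes, with 5 false calls. The exact binomial intervals of pooled counts, and the floors, cover counting error of reads only. The intervals of log2 fold changes rest on the SE of the edgeR fit, so they also reflect spread among libraries. Reads carry no molecular identifiers, so the counts are of reads and not of molecules.

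The 10 genes, the 7 pathway lists (91 genes, all with a row) and the 11 marker lists were chosen with earlier results of these data known. Other genes were named by rule: up to 4 calls per list and direction by smallest p, the 2 most abundant tested genes of a list with no call, ligands with more than 3 counts, and the 3 genes nearest to Il10, Stat3 and Socs3 in pattern. Genes named outside it are said to have been named after their values were seen, or are named for an outcome of 0. Of the genes this rule names, 1 is not reported here. Alternatives were DESeq2 1.42.0, its size factors, library size scaling, limma-voom (limma 3.58.1), a robust fit, other filters, a threshold of 0.01, limma-trend run on FPKM values after log2(FPKM + 1) or, separately, log2(FPKM + 0.1), with at least 0.5 FPKM in 3 libraries or no filter, leaving out each library, and summing spleen and marrow replicates 24 and 26. Figures were drawn with matplotlib 3.10.9.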

Additional observations from a re-analysis of the deposited data

How the results depend on the processing

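Il10ra kept its call under every alternative run. Without single libraries the genes called over the whole table numbered 260 to 1569 higher and 179 to 1215 lower, the 10 genes gave 1 to 5 higher and 0 lower, and the pathway lists gave 6 to 20 higher and 0 to 3 lower. Summing spleen and marrow replicates 24 and 26 gave 299 higher and 201 lower over all genes, 2 of the 10 higher, and 7 higher and 0 lower in the lists. A threshold of 0.01 gave 322 and 189, 2, and 8 and 0. DESeq2 gave 995 lower over all genes and 2 lower in the lists. On FPKM with limma-trend, log2(FPKM + 1) gave 471 higher over all genes, 2 of the 10 higher and 9 higher and 0 lower in the lists, log2(FPKM + 0.1) gave 487, 2 and 11 and 0, and log2(FPKM + 1) without a filter gave 333, 1 and 7 and 0. Of the calls over all genes, 57.0% were higher in kidney with edgeR, 46.8% with limma-voom and 40.8% on log2(FPKM + 1). The median log2 fold change of all genes tested was 0.05 with edgeR and -0.11 on log2(FPKM + 1). On the latter scale Il10rb and Socs3 missed the threshold (limma-trend adjusted p = 0.0568 and 0.0656). So did Il21r, Il4ra and Lifr (limma-trend adjusted p = 0.0937, 0.0798 and 0.122). The calls of Ddit4, Cebpd, Hmox1 and Ccl17 were lost there too (0.0519, 0.0730, 0.0568 and 0.0814), as were those of Entpd1 and Itgam (0.0608 and 0.116). Among the genes named for a call, Lyz2 alone reversed, on FPKM without a call, at 4.18 on log2(FPKM + 1) with or without a filter and 5.28 on log2(FPKM + 0.1), where spleen and marrow replicate 26 is listed at 0 FPKM against 17373 and 23885 FPKM in replicates 2 and 24. The cause of the other differences was not tested. No paired analysis was possible because the groups share no replicate number. Depth limits Il10, Cish, Il4 and the other ligand genes with few counts most.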
